A study of Homo sapiens with 36 samples.

Results

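Growth factor receptors of leukemia cells are described here by 7 genes, FLT3, KIT, CSF1R, FGFR3, FGFR1, CSF3R and CSF2RB, which were taken by their symbols from the 59041 genes of the series. FLT3, KIT and CSF1R encode receptor tyrosine kinases of one family (class III), which bind FLT3 ligand, stem cell factor and the colony-stimulating factors CSF1 and IL34, respectively. FGFR1 and FGFR3 are receptor tyrosine kinases for fibroblast growth factors. CSF3R is the receptor of granulocyte colony-stimulating factor, and CSF2RB is the signalling chain shared by the receptors of GM-CSF, IL-3 and IL-5, both without a kinase of their own and coupled to JAK2. On binding their ligand these receptors form pairs and start RAS-MAPK, PI3K and STAT signals. In blood formation KIT and FLT3 mark stem and progenitor cells, whereas CSF1R and CSF3R mark the monocyte and neutrophil lineages.

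HL60, MOLM13 and OCIAML3 are established human acute myeloid leukemia (AML) cell lines. Cells of each line were kept for 24 h in DMSO, the drug solvent, or treated for the same time with cytarabine (0.1 µM), with daunorubicin (0.02 µM) or with the combination of the same doses. Cytarabine is a nucleoside analog that stops the copying of DNA. Daunorubicin, an anthracycline, slips between DNA bases and traps topoisomerase II on DNA. Every one of the 12 groups held 3 libraries of total RNA that the labels call biological replicates, 36 libraries in all, and each line is a model of 1 leukemia. The labels give the genotype WT for every sample. MOLM13 carries an internal tandem duplication of FLT3 in its coding sequence, which keeps the kinase active without ligand. Reads of the normal and the duplicated allele were counted together, so the values below do not separate them.

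Library totals ranged from 25067734 to 47322144 estimated reads (median 32194478). Myeloid markers (MPO, ELANE, CD33, SPI1, PTPRC, LYZ, CD68, ITGAM and CD14) summed to 1139 to 5280 CPM (read counts scaled to library size) in every library, whereas the 4 T cell markers summed to at most 2.09 CPM and the 4 erythroid markers to at most 0.398 CPM. Sums of B cell, epithelial and megakaryocyte markers reached 15.3 CPM (HL60), 13.7 CPM (MOLM13) and 9.45 CPM (HL60). Fibroblast and mast cell markers reached 4.78 and 2.39 CPM. Single myeloid markers differed between lines, with DMSO means of 0.145 CPM for ELANE, 0.879 CPM for CD68 and 0.101 CPM for CD14 in HL60 cells. MPO stood at 2.24 CPM in OCIAML3 cells. Among OCIAML3 samples, the libraries labelled cytarabine replicate 3 and combination replicate 3 stood apart from the other libraries of their groups. CDKN1A, a target of p53 that rises after DNA damage, stood at 106, 97.9 and 365 CPM in cytarabine replicates 1, 2 and 3, and at 1377, 1069 and 81.2 CPM in the combination replicates. In daunorubicin replicate 3 it stood at 377 CPM, beside 1244 and 914 CPM in the other two. Whether labels were exchanged among OCIAML3 libraries was not tested. No library was relabelled, and OCIAML3 results are given with all libraries and without those 2.

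Before treatment the 3 lines carried different sets of receptors. Levels of different genes are compared here in TPM, transcript abundances that correct for length. In DMSO-treated MOLM13 cells FLT3 led with 114 ± 12.7 TPM (SD, n = 3), ahead of CSF3R with 77.9 ± 3.3 TPM. CSF3R led in HL60 cells with 20.9 ± 5.66 TPM and in OCIAML3 cells with 71.8 ± 2.08 TPM. CSF2RB was next in both lines, with 8.54 ± 1.42 TPM in HL60 and 11.8 ± 0.121 TPM in OCIAML3 cells. FLT3 stood at 3.37 ± 0.626 TPM in HL60 and 2.85 ± 1.1 TPM in OCIAML3 cells.

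At the low end of the TPM order, CSF1R (mean 0.096 TPM) overlapped both FGFR3 (0.112 TPM) and KIT (0.0386 TPM) in HL60 cells. In MOLM13 cells KIT (0.32 ± 0.176 TPM) and FGFR3 (0.224 ± 0.169 TPM) overlapped, below CSF1R (8.55 ± 1.43 TPM), CSF2RB (5.72 ± 0.431 TPM) and FGFR1 (1.61 ± 0.337 TPM). In OCIAML3 cells FGFR1 (7.06 ± 2.05 TPM) and CSF1R (6.38 ± 1.23 TPM) overlapped, FGFR3 reached 1.77 ± 0.148 TPM, and KIT was 0 in each DMSO library. Neighbours in the order other than the overlaps named here did not share any part of their ranges over 3 libraries.

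**Figure D1:**
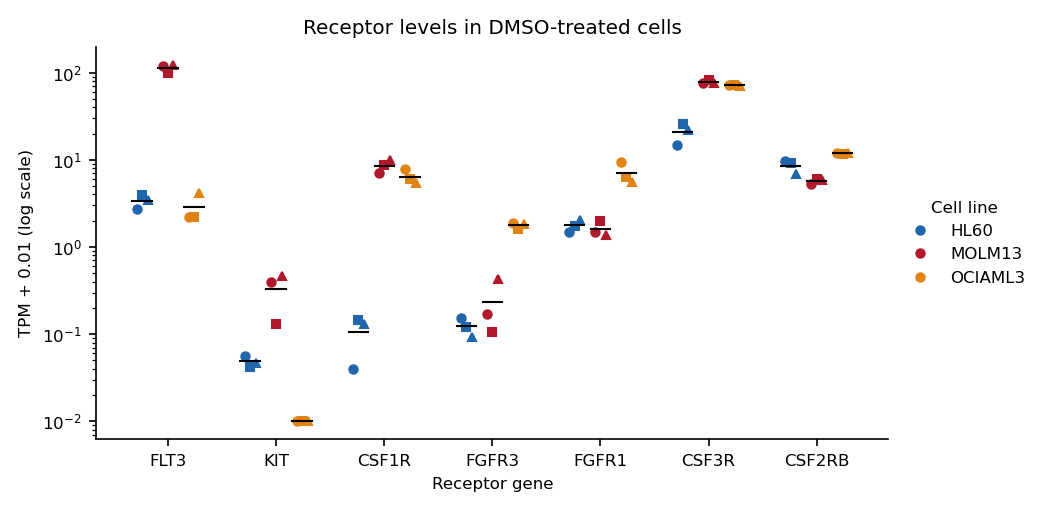
TPM plus 0.01 (log axis) of the 7 receptor genes in DMSO-treated cells, with 1 point per library, 1 colour per cell line and a line at each mean. FLT3 of MOLM13 cells (mean 114 TPM) stands apart from HL60 and OCIAML3 cells, and CSF1R is low in HL60 cells alone (mean 0.096 TPM).

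Differences between lines were tested on counts of the 9 DMSO libraries with edgeR's quasi-likelihood test and called at a Benjamini-Hochberg adjusted p under 0.05 over all genes and a log2 difference over 1 in size. KIT was too low to be tested. MOLM13 exceeded HL60 cells in 3 receptors, where 30.6% of all genes tested were called in either direction. CSF1R differed by 7.78 on the log2 scale (SE 0.27, adjusted p = 4.73e-10), a value that rests on 3, 4 and 3 counts in HL60 libraries, and the gene entered this test only through the other two lines. FLT3 was 32.2 times higher (5.01, SE 0.21, adjusted p = 2.12e-09) and CSF3R 3.45 times (1.79, SE 0.11, adjusted p = 7.85e-08). OCIAML3 exceeded HL60 cells in 4 receptors (38.3% of all genes called), CSF1R by 7.08 on the log2 scale (on the same few HL60 reads), FGFR3 by 3.47, FGFR1 by 1.60 and CSF3R by 1.24. OCIAML3 and MOLM13 cells differed in 3 receptors (30.9% of all genes called). FLT3 was 47.3 times lower in OCIAML3 cells (log2 difference -5.56, SE 0.21, adjusted p = 1.76e-09), whereas FGFR3 (3.08) and FGFR1 (1.76) were higher. CSF2RB was not called in any pair of lines, with log2 differences from -0.68 to 0.77. These shares of called genes show that differences between the lines were common across the transcriptome.

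In each line, the treatments were compared with DMSO to ask which receptors changed in 24 h. Calls again needed an adjusted p under 0.05 over all genes tested by edgeR and a log2 fold change beyond 1 or -1. RNA of whole cultures was read, so fewer cells with a transcript and less of it per cell cannot be told apart. In HL60 cells 4 of 7 receptors rose after cytarabine (FLT3, KIT, CSF1R and FGFR3), where 13.7% of all tested genes rose by the same call. After daunorubicin 3 rose (FLT3, CSF1R and FGFR3; 6.76% of all genes), and after the combination the same 4 as with cytarabine (17% of all genes). No receptor fell in HL60 cells, where 3.12%, 0.538% and 6.29% of all genes fell after cytarabine, daunorubicin and the combination. In MOLM13 cells KIT and FGFR3 rose after cytarabine (7.11% of all genes rose and 1.03% fell). KIT, CSF1R, FGFR3 and CSF3R rose after daunorubicin (11.3% of all genes) and after the combination (11.8% of all genes), and FGFR1 fell after both (5.71% and 5.61% of all genes fell). FGFR3 was called in all 6 comparisons of these 2 lines and FLT3 in HL60 cells alone, with CSF2RB in none. In HL60 cells KIT and CSF1R passed the filter on low counts only through treated groups, as KIT did in MOLM13 cells. They had to be higher in treated groups to be tested at all, so the direction of their calls is not a separate result.

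With all libraries, 0 receptors were called in OCIAML3 cells by edgeR after cytarabine, daunorubicin or the combination, beside 0% of all 16650 genes tested in each. At an unadjusted p under 0.05, the counts were 0, 5 and 4 receptors and 256, 5086 and 3874 of all genes. DESeq2 called 0, 2 and 0 receptors. Of all 16650 genes it called 1, 317 and 2 as higher and 0, 28 and 2 as lower. The receptors found by DESeq2 after daunorubicin were CSF1R and FGFR3. Without cytarabine replicate 3 and combination replicate 3, edgeR called CSF1R and FGFR3 as higher after daunorubicin (3.61% of all genes rose and 0.539% fell), and after the combination CSF1R and FGFR3 as higher and FLT3 as lower (5.9% rose and 1.96% fell). After cytarabine it again called 0 receptors and 0 of all genes, with 312 genes at an unadjusted p under 0.05. Since daunorubicin replicate 3 also differed from its group, replicate 3 of all 3 drug groups was left out in a further fit chosen after these values were seen. It called CSF1R and FGFR3 as higher and FLT3 as lower after daunorubicin (5.18% of all genes rose and 0.987% fell) and after the combination (6.28% rose and 1.89% fell). Both reduced fits kept DMSO replicate 3, which held the most FLT3 of the DMSO libraries (11.3 CPM).

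**Figure D2:**
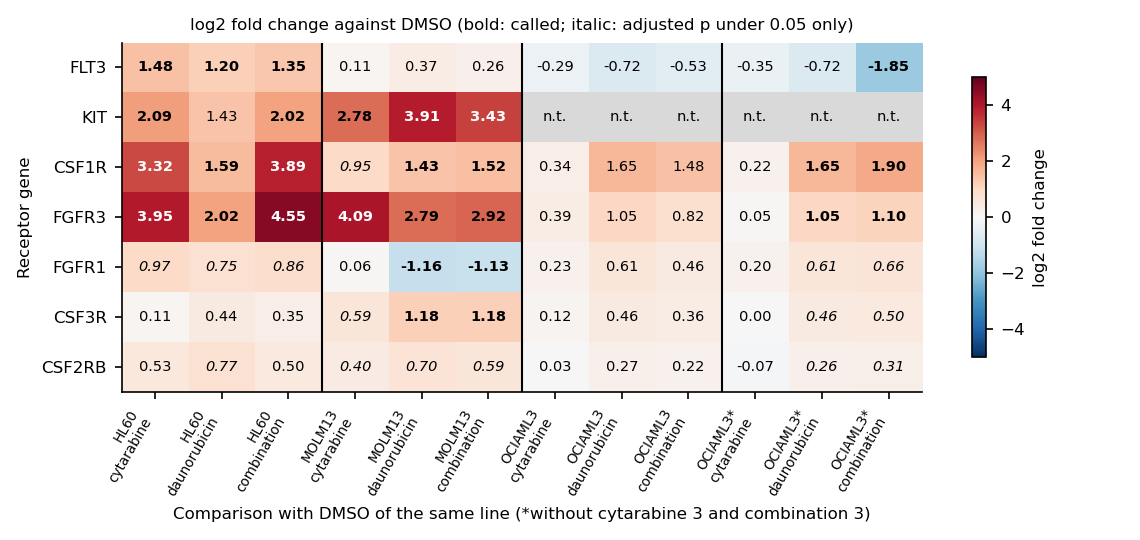
Log2 fold change against DMSO from edgeR (colour and number) of the 7 receptors (rows) in each line and treatment (columns), in bold where called, in italics where only the adjusted p passed, and with n.t. where not tested; the last 3 columns leave out OCIAML3 cytarabine 3 and combination 3. FGFR3 has a positive value in each column, up to 4.55 in HL60 cells after the combination, and FGFR1 falls in MOLM13 cells after daunorubicin (-1.16) and the combination (-1.13).

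FLT3 lies at chr13:28003274-28100592 on the minus strand (GRCh38, GENCODE release 44). In HL60 cells it stood at 10.2, 12.8 and 12.2 CPM in DMSO replicates 1, 2 and 3, and at 31.4, 34.4 and 36 CPM after cytarabine. After daunorubicin it stood at 27.7, 30.7 and 23.8 CPM and after the combination at 26.5, 28.4 and 38.4 CPM. Each of the 9 treated libraries lay above each DMSO library, and combination libraries overlapped both other treated groups, which did not overlap each other. The log2 fold changes were 1.48 (SE 0.16, adjusted p = 1.62e-05), 1.20 (SE 0.16, adjusted p = 0.000303) and 1.35 (SE 0.16, adjusted p = 1.34e-05), or 2.8, 2.3 and 2.55 times DMSO.

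In MOLM13 cells, where FLT3 was far more abundant, it stood at 390, 340 and 412 CPM with DMSO and at 458, 360 and 414 CPM after cytarabine. Daunorubicin libraries held 550, 391 and 503 CPM and combination libraries 542, 371 and 433 CPM. Treated and DMSO libraries overlapped after each treatment, and replicate 2 was the lowest of each group. The log2 fold changes of 0.11, 0.37 and 0.26 were not called (adjusted p = 0.609, 0.0566 and 0.158). In OCIAML3 cells FLT3 stood at 6.19, 6.09 and 11.3 CPM with DMSO, at 2.46, 3.51 and 8.46 CPM after daunorubicin and at 1.81, 2.64 and 11.8 CPM after the combination. In these 3 groups replicate 3 was the highest library, DMSO included. The combination change was -0.53 with all libraries (adjusted p = 0.604) and -1.85 (SE 0.51, adjusted p = 0.0151) without the 2 libraries that stand apart. The latter fit left out the highest combination library and kept the highest DMSO library, so the 2 groups were not reduced alike. FLT3LG, which encodes the ligand, was between 1.42 and 4.11 CPM on average with DMSO in the 3 lines and was not called after any treatment. Some of its changes missed only the fold threshold. They were 0.70, 0.95 and 0.78 in MOLM13 cells (adjusted p = 0.0408, 0.0059 and 0.0166), and 0.56 in HL60 cells after the combination (adjusted p = 0.0321).

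KIT (chr4:54657267-54740783, plus strand) was among the lowest receptors in each line. In HL60 cells it had 3, 4 and 5 counts with DMSO (0.111, 0.134 and 0.166 CPM), and 0.393, 1.05 and 0.412 CPM after cytarabine. Daunorubicin gave 0.502, 0.309 and 0.35 CPM, and the combination 0.922, 0.508 and 0.347 CPM. All treated libraries lay above the DMSO libraries, on 35 to 65 reads summed over the 3 libraries of a treated group. KIT passed the filter on low counts in HL60 cells only through treated groups, so it had to be higher there to be tested at all. The edgeR fold changes on the log2 scale were 2.09 after cytarabine (SE 0.58, adjusted p = 0.00951) and 2.02 after the combination (SE 0.58, adjusted p = 0.00923). That after daunorubicin was 1.43 and was not called (adjusted p = 0.102). As a ratio of summed counts the cytarabine change was 5.09 (95% exact interval 2.71 to 10.4, counting error only), and it lost its call without cytarabine replicate 2 (log2 fold change 1.46, adjusted p = 0.0624). The combination change lost its call without combination replicate 1 (1.56, adjusted p = 0.0512).

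In MOLM13 cells KIT rose from 0.325, 0.415 and 0.457 CPM with DMSO to 3, 2.59 and 2.73 CPM after cytarabine. It reached 5.27, 6.79 and 5.73 CPM after daunorubicin and 3.05, 4.64 and 5.08 CPM after the combination. No treated library overlapped DMSO, and daunorubicin libraries were all above the cytarabine ones. As in HL60 cells, KIT entered the test through treated groups, since only 2 of 3 DMSO libraries reached the filter of 0.346 CPM. The levels were 6.88, 15 and 10.8 times DMSO (log2 fold changes 2.78, 3.91 and 3.43, each with SE 0.26, adjusted p = 6.4e-05, 6.25e-06 and 1.04e-05). With an offset for transcript length the KIT changes were 1.65, 3.09 and 2.44, of which the cytarabine one was not called (adjusted p = 0.0739). In OCIAML3 cells KIT had 0 counts in 10 of 12 libraries and 1 count in daunorubicin replicates 1 and 3, where a count of 0 allows up to 0.0661 to 0.113 CPM (3 counts of each library). KITLG, the gene of the KIT ligand stem cell factor, rose in HL60 cells after cytarabine (log2 fold change 1.52, adjusted p = 0.00801) and the combination (1.51, adjusted p = 0.0067), and in MOLM13 cells after each treatment (2.78, 2.88 and 2.41).

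CSF1R (chr5:150053291-150113372, minus strand) has 2 RefSeq start sites, a proximal one used in myeloid cells and a distal one. Their promoters, the 250 bases before each start, are shown because the reads of OCIAML3 cells were divided between transcripts of both (RefSeq, GRCh38.p14, minus strand, 5′ to 3′). Capitals mark matches on either strand to AGGAAG (a core bound by ETS factors such as PU.1), TGTGGT (a RUNX core) and GGGCGG (a GC box).
CSF1R proximal, chr5:150086555-150086804: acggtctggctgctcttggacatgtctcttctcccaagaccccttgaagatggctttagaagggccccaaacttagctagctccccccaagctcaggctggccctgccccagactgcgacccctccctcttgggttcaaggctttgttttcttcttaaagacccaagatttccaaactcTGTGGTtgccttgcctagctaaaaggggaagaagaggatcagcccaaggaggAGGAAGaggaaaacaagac
CSF1R distal, chr5:150113366-150113615: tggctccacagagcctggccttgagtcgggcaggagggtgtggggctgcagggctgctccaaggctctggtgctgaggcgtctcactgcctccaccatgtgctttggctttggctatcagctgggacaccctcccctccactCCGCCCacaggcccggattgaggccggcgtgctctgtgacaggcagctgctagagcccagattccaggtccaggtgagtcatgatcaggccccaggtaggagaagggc
The proximal window held 1 AGGAAG and 1 TGTGGT, which occur in 28.7% and 11% of all 35116 promoters of this length. The distal window held neither of them, and 1 GC box (42.6% of all promoters). It also held 1 TGANTCA, an AP-1 motif (6.57% of all promoters), and 4 CANNTG, the E box (61.8%), which are not in capitals and which the proximal window did not hold. A match of letters does not show that a factor is bound.

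In HL60 cells CSF1R had 3, 4 and 3 counts with DMSO (0.111, 0.134 and 0.0994 CPM), and 1.11, 1.24 and 1.32 CPM after cytarabine. It stood at 0.466, 0.309 and 0.315 CPM after daunorubicin and at 1.44, 1.98 and 2.05 CPM after the combination. The groups did not overlap, and they ran in the order DMSO, daunorubicin, cytarabine, combination. Like KIT, CSF1R entered the test in this line only through treated groups. The log2 fold changes were 3.32 (SE 0.38, adjusted p = 2.48e-05), 1.59 (SE 0.41, adjusted p = 0.0144) and 3.89 (SE 0.38, adjusted p = 3.65e-06) for cytarabine, daunorubicin and the combination. As ratios of summed counts they were 12.1 (95% exact interval 6.36 to 25.9), 3.24 (1.56 to 7.36) and 18.1 (9.63 to 38.3). The daunorubicin call was lost without daunorubicin replicate 1 (log2 fold change 1.38, adjusted p = 0.0663), without DMSO replicate 3 (1.50, adjusted p = 0.0545) and with an offset for transcript length (0.85, adjusted p = 0.358). With only transcripts annotated as protein-coding the CSF1R changes were 7.86, 6.38 and 8.59, which rest on the same few DMSO reads.

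In MOLM13 cells CSF1R rose from 21.9, 27.2 and 30.2 CPM with DMSO to 76.7, 63.8 and 68.3 CPM after daunorubicin and 72.7, 71.1 and 79 CPM after the combination. After cytarabine it stood at 55.4, 43.1 and 54 CPM. Cytarabine libraries lay between DMSO and the other groups with no overlap. The changes after daunorubicin and the combination were 1.43 and 1.52 on the log2 scale (SE 0.13 each, adjusted p = 1.23e-05 and 1.15e-05). The cytarabine change of 0.95 (SE 0.13, adjusted p = 0.000304) fell just short of the fold threshold.

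OCIAML3 cells held CSF1R at 19, 14.5 and 13.7 CPM with DMSO and at 17.8, 18.7 and 23 CPM after cytarabine. Daunorubicin gave 77.1, 48.6 and 25.1 CPM, and the combination 76.7, 44.2 and 13.9 CPM. Replicates 1 and 2 of both groups were well above DMSO, whereas replicate 3 was the lowest of each and lay within the DMSO range in the combination. With all libraries the log2 fold changes were 1.65 and 1.48 (adjusted p = 0.122 and 0.209). Without the 2 libraries they were 1.65 (SE 0.34, adjusted p = 0.00707) and 1.90 (SE 0.37, adjusted p = 0.00291). CSF1, the ligand gene, rose in HL60 cells after cytarabine (log2 fold change 3.42, adjusted p = 0.00362, from 0.0669 to 0.798 CPM) and the combination (3.54, adjusted p = 0.0021). Its DMSO mean lay under the HL60 filter of 0.325 CPM, so it was tested there only through treated libraries. In MOLM13 cells it rose after all 3 treatments (2.38, 1.55 and 2.21). In OCIAML3 cells it was at 1.76 CPM with DMSO and was not called.

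Reads assigned to transcripts of the distal CSF1R start made up 34.2%, 29.3% and 45.1% of the gene in OCIAML3 DMSO libraries. With cytarabine they made up 8.43%, 0% and 22.4%. With daunorubicin the shares were 13.6%, 8.94% and 8.19%, and with the combination 18.1%, 6.84% and 0%. No treated library reached the DMSO range. In CPM, transcripts with other starts went from 12.5, 10.3 and 7.52 with DMSO to 66.6, 44.3 and 23 after daunorubicin, while the distal transcripts stood at 6.49, 4.25 and 6.18 CPM with DMSO and at 10.5, 4.35 and 2.06 CPM after daunorubicin. In MOLM13 cells the distal share was at most 12.9% in any library, and in HL60 cells it was 0% throughout. These shares come from the model by which Salmon divides reads among overlapping transcripts, and they were not tested.

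**Figure D3:**
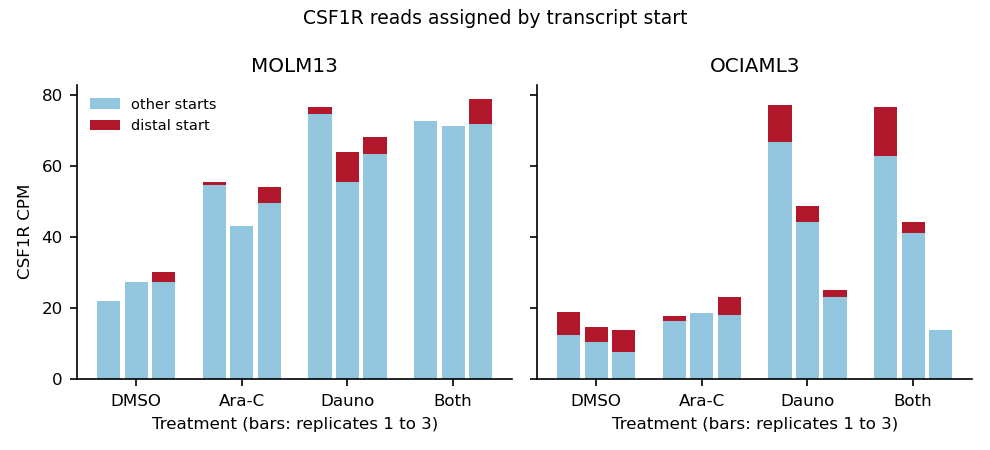
CSF1R CPM in MOLM13 and OCIAML3 libraries, split into transcripts that begin at the distal start (red) and all others (blue), with 1 bar per replicate. Distal transcripts make up 29.3% to 45.1% of CSF1R in OCIAML3 DMSO libraries and no more than 22.4% in any treated OCIAML3 library.

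FGFR3 (chr4:1793293-1808872, plus strand) was the receptor with the highest fold change in HL60 cells. Its promoter is shown since it is the receptor called most often (250 bases before the start, RefSeq, GRCh38.p14, plus strand, with GC boxes in capitals).
FGFR3, chr4:1793043-1793292: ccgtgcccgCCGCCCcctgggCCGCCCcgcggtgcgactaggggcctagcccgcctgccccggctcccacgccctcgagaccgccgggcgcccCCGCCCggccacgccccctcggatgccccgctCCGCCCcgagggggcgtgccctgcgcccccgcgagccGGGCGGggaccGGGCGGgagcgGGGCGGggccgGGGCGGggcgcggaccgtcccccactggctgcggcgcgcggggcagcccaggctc
This window was 86.8% G and C, beside a median of 58% over all promoters, and held 8 GC boxes. It held no AGGAAG and no TGTGGT.

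HL60 cells had 0.705, 0.435 and 0.365 CPM of FGFR3 with DMSO and 7.86, 7.6 and 8.67 CPM after cytarabine. Daunorubicin gave 2.12, 2.58 and 1.47 CPM, and the combination 11.1, 12.3 and 13.4 CPM. The 4 groups did not overlap, and their order was the same as for CSF1R. The changes were 15.5, 4.04 and 23.5 times DMSO (log2 fold changes 3.95, 2.02 and 4.55, SE 0.27, 0.28 and 0.28, adjusted p = 1.34e-06, 0.00038 and 3.59e-07). MOLM13 cells had 0.65, 0.415 and 0.915 CPM with DMSO and 9.83, 14.5 and 9.44 CPM after cytarabine. Daunorubicin gave 6.54, 1.13 and 5.86 CPM and the combination 7.43, 1.5 and 5.89 CPM. All treated libraries were above DMSO, but replicate 2 was close to the DMSO range after daunorubicin and the combination. The log2 fold changes were 4.09 (SE 0.70, adjusted p = 0.00114), 2.79 (SE 0.69, adjusted p = 0.00537) and 2.92 (SE 0.69, adjusted p = 0.00402).

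In OCIAML3 cells FGFR3 began higher, at 5.5, 5.48 and 5.3 CPM, and stood at 12.8, 12.6 and 8.84 CPM after daunorubicin. The combination gave 11.3, 12.6 and 5.4 CPM, and cytarabine 6.05, 5.23 and 10.1 CPM. Replicate 3 was the exception in each drug group, high after cytarabine and low after the other 2 treatments. With all libraries the changes of 1.05 and 0.82 after daunorubicin and the combination were not called (adjusted p = 0.122 and 0.209). Without the 2 libraries they were 1.05 (SE 0.14, adjusted p = 0.00162) and 1.10 (SE 0.15, adjusted p = 0.00082). FGF2, a ligand of both FGF receptors studied here, was called in MOLM13 cells after each treatment, from 0.0931 CPM with DMSO to 0.336, 0.525 and 0.626 CPM, and in HL60 cells after the combination (to 0.299 CPM, adjusted p = 0.0485). In both lines its DMSO mean was under the filter, so it was tested only through treated libraries. In OCIAML3 cells without the 2 libraries it rose from 0.701 to 5.05 CPM after daunorubicin (log2 fold change 2.78, adjusted p = 0.0044) and 5.79 CPM after the combination (2.96, adjusted p = 0.00203).

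**Figure D4:**
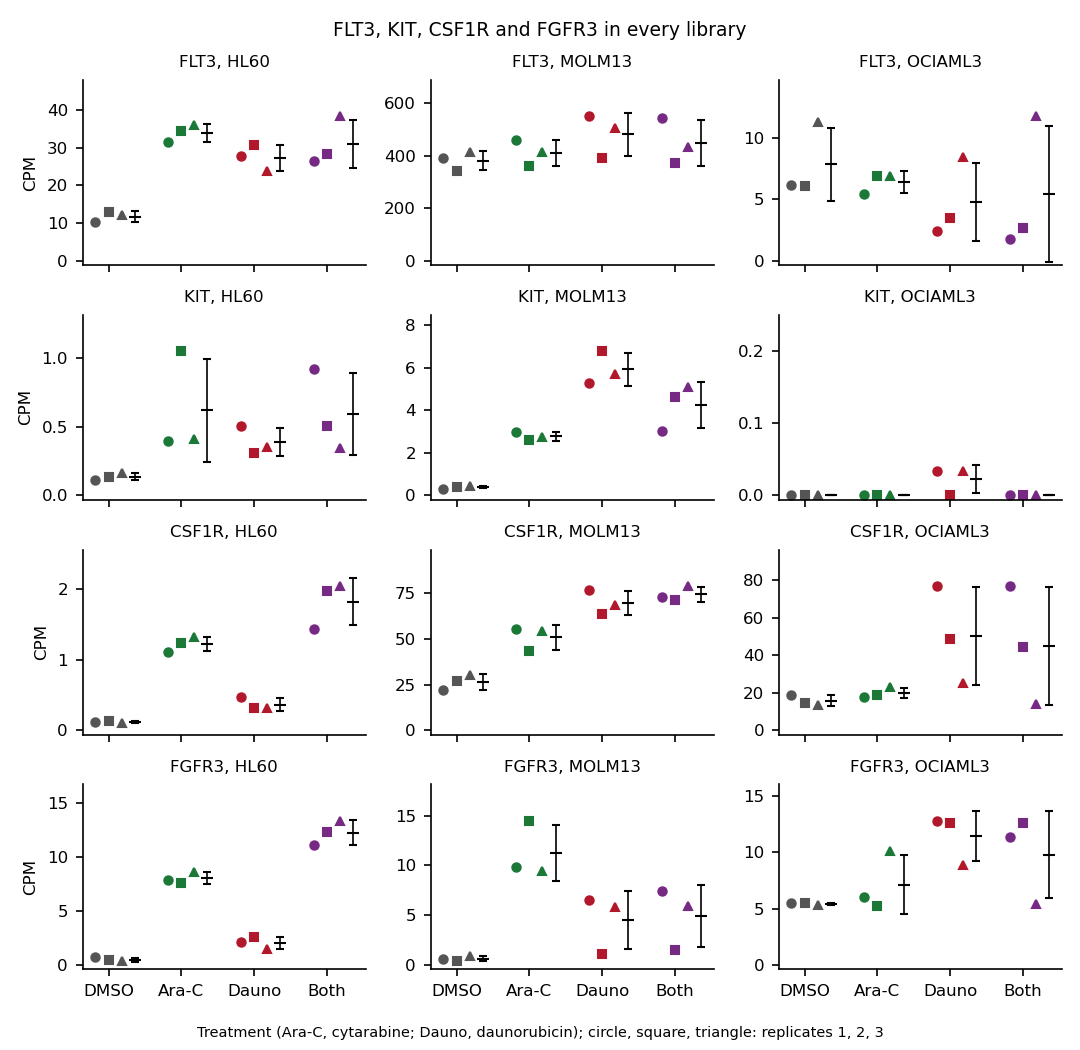
CPM of FLT3, KIT, CSF1R and FGFR3 (rows) in each cell line (columns), with 1 point per library, linear axes that differ between panels, and bars for the mean and SD of 3 libraries. FLT3 of HL60 cells goes from 10.2 to 12.8 CPM with DMSO to 23.8 to 38.4 CPM with a drug, while MOLM13 values overlap at 340 to 550 CPM.

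CSF3R (chr1:36466043-36483278, minus strand) had the most ETS core matches of the promoter windows searched, in the one before its proximal RefSeq start (250 bases, GRCh38.p14, minus strand, AGGAAG on either strand in capitals).
CSF3R, chr1:36482914-36483163: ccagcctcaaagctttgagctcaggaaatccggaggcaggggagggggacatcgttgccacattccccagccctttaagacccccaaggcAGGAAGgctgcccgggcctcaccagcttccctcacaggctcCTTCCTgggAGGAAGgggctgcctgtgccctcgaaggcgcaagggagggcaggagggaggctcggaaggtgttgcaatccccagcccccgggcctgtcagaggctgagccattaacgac
The window held 3 matches, of which CTTCCT is one on the opposite strand. In MOLM13 cells CSF3R stood at 141, 169 and 140 CPM with DMSO, at 207, 244 and 225 CPM after cytarabine, at 327, 379 and 290 CPM after daunorubicin and at 294, 358 and 347 CPM after the combination. No treated library overlapped DMSO, and cytarabine libraries were below those of the other 2 treatments. CSF3R rose 2.26 times after daunorubicin and after the combination (log2 fold change 1.18 and SE 0.12 in both, adjusted p = 2.04e-05 and 2.3e-05), and its cytarabine change of 0.59 was below the fold threshold (adjusted p = 0.00297).

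In HL60 cells CSF3R ranged from 35.2 to 48.7 CPM with DMSO and from 43.1 to 68.6 CPM in treated libraries. The changes of 0.11, 0.44 and 0.35 on the log2 scale were not called (adjusted p = 0.579, 0.057 and 0.0693). In OCIAML3 cells CSF3R stood at 101, 97.7 and 100 CPM with DMSO, 148, 140 and 128 CPM after daunorubicin and 146, 143 and 101 CPM after the combination. Without the 2 libraries the OCIAML3 changes were 0.46 (adjusted p = 0.00123) and 0.50 (adjusted p = 0.000611), both under the fold threshold. CSF3, the ligand gene, was too low to be tested in any line. Transcripts annotated as retaining an intron took 35.8% ± 1.9 of CSF3R reads in OCIAML3 DMSO libraries, 26.4% ± 2.1 in HL60 and 25.2% ± 2.16 in MOLM13 cells (SD, n = 3, shares estimated by Salmon and not tested).

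CSF2RB (chr22:36913628-36940439, plus strand) was called after no treatment. In HL60 cells it stood at 46.2, 36.8 and 30.6 CPM with DMSO and at 85.9, 64.2 and 47.5 CPM after daunorubicin. All daunorubicin libraries were above DMSO, the lowest of them only slightly. Its log2 fold change of 0.77 had an adjusted p of 0.0436 and missed the fold threshold. In MOLM13 cells CSF2RB stood at 21.2, 26.2 and 24.3 CPM with DMSO and at 28.1 to 41.4 CPM in treated libraries, with changes of 0.40, 0.70 and 0.59 (adjusted p = 0.0149, 0.00028 and 0.00087), again without overlap and under the fold threshold. In OCIAML3 cells the DMSO libraries all held 39.4 CPM, and the log2 fold changes were 0.03, 0.27 and 0.22 (adjusted p = 1, 0.133 and 0.217).

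CSF2RB works with ligand-binding alpha chains, of which CSF2RA binds GM-CSF and IL3RA binds IL-3. Both genes lie in the region shared by the X and Y chromosomes, where reads can be divided between copies, so their levels are uncertain. MOLM13 cells held CSF2RA at 37.6 CPM and IL3RA at 54.3 CPM on average with DMSO, HL60 cells 3.55 and 0.113 CPM, and OCIAML3 cells 1.77 and 1.53 CPM. IL3RA rose in HL60 cells after cytarabine (log2 fold change 1.76, adjusted p = 0.0115, to 0.411 CPM) and the combination (2.73, adjusted p = 0.00038, to 0.818 CPM), where its DMSO mean was under the filter of 0.325 CPM and it was tested only through treated libraries. It was not called in MOLM13 cells. CSF2RA was called in OCIAML3 cells without the 2 libraries, after daunorubicin (1.17, adjusted p = 0.0277) and the combination (1.61, adjusted p = 0.00657). The ligand genes CSF2 and IL3 had 0 counts in every library.

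FGFR1, on the minus strand of chromosome 8, overlaps LETM2 on the opposite strand, and since the libraries were unstranded, reads of the overlap cannot be told apart. In MOLM13 cells FGFR1 stood at 4.77, 6.08 and 5.28 CPM with DMSO and at 4.02, 7.06 and 5.77 CPM after cytarabine. Daunorubicin libraries held 2.06, 2.06 and 2.97 CPM and combination libraries 2.63, 2.62 and 1.99 CPM. The latter 6 libraries were all below DMSO, and cytarabine libraries overlapped it. FGFR1 fell after daunorubicin (log2 fold change -1.16, SE 0.24, adjusted p = 0.00179) and the combination (-1.13, SE 0.24, adjusted p = 0.00201), the only receptor that fell in MOLM13 cells. In TPM the DMSO libraries (1.46, 2 and 1.37) and daunorubicin libraries (1.4, 0.523 and 1.42) overlapped, whereas the combination libraries (0.99, 0.909 and 0.667) were all below DMSO. With an offset for transcript length the changes were -0.52 (adjusted p = 0.294) and -0.89 (adjusted p = 0.0759), neither of them called.

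HL60 cells held FGFR1 at 6.53, 6.03 and 5.3 CPM with DMSO and at 8.09, 13.2 and 14.9 CPM after cytarabine. Daunorubicin gave 9.03, 10.5 and 11 CPM and the combination 9.9, 9.91 and 13.9 CPM. All treated libraries were above DMSO, whereas daunorubicin and combination libraries of MOLM13 cells were below it. The changes of 0.97, 0.75 and 0.86 on the log2 scale had adjusted p of 0.00314, 0.0301 and 0.00523 and stayed under the fold threshold. The cytarabine change passed that threshold without DMSO replicate 1 (1.03, adjusted p = 0.0083) and without cytarabine replicate 1 (1.19, adjusted p = 0.000611). LETM2 was called in HL60 cells after each treatment (2.70, 1.24 and 2.68 on the log2 scale, from 0.497 CPM with DMSO to at most 3.35 CPM on average), and its part in the FGFR1 values was not tested. In OCIAML3 cells FGFR1 stood at 20.6, 17.7 and 14.8 CPM with DMSO and at 31.5, 28.9 and 21.6 CPM after daunorubicin, a change of 0.61 that was not called (adjusted p = 0.124). FGFR2, the related receptor, was called as lower in OCIAML3 cells after the combination without the 2 libraries (log2 fold change -1.89, adjusted p = 0.0277).

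**Figure D5:**
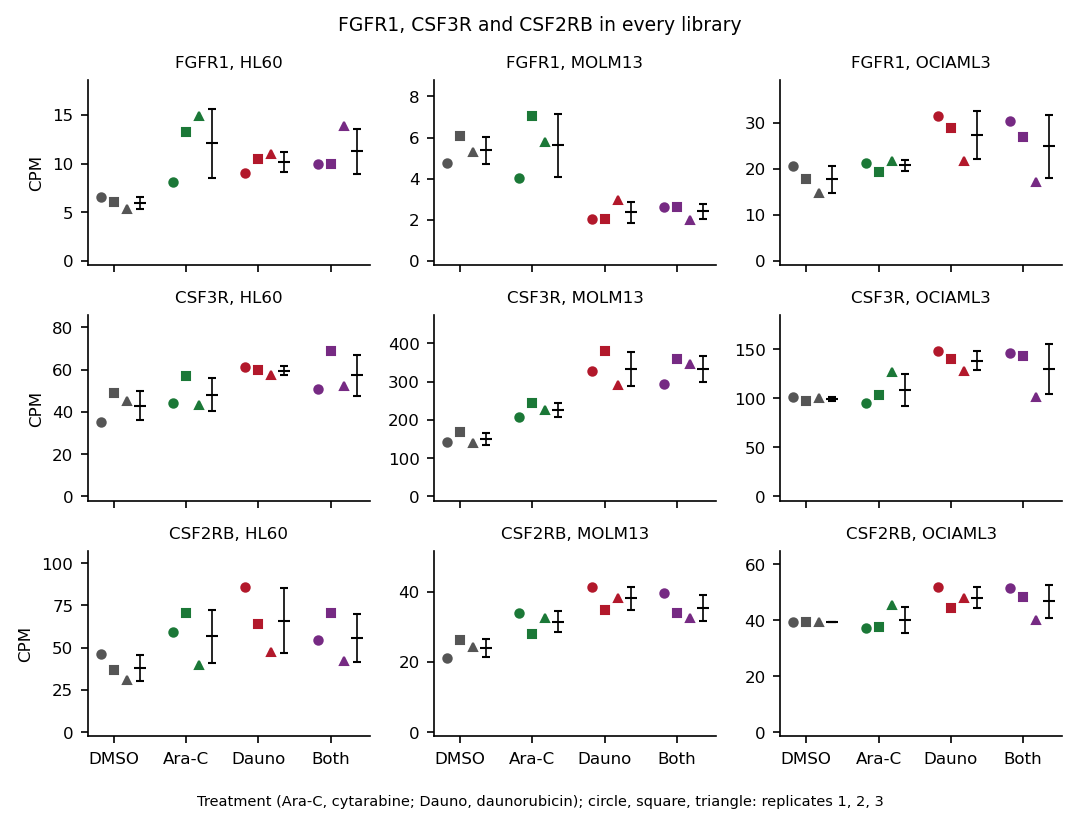
CPM of FGFR1, CSF3R and CSF2RB (rows) in each cell line (columns), with 1 point per library, linear axes that differ between panels, and bars for the mean and SD of 3 libraries. FGFR1 of MOLM13 cells goes from 4.77 to 6.08 CPM with DMSO to 1.99 to 2.97 CPM with daunorubicin or the combination, and CSF3R of the same line from 140 to 169 CPM up to 290 to 379 CPM.

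Whether a treatment changed a receptor differently in 2 lines was tested by the interaction of line and treatment over all 36 libraries, called at an adjusted p under 0.05 of edgeR. After daunorubicin 3 receptors differed between MOLM13 and HL60 cells (20.5% of all 19053 genes tested), with differences, MOLM13 minus HL60, of 2.43 for KIT (adjusted p = 0.0104), 0.68 for CSF3R (adjusted p = 0.0184) and -1.96 for FGFR1 (adjusted p = 0.000186) on the log2 scale. After the combination 3 differed (27.4% of all genes), FGFR1 by -2.07 (adjusted p = 2.81e-05), CSF1R by -2.45 (adjusted p = 0.0317) and CSF3R by 0.74 (adjusted p = 0.00745). The KIT and CSF1R differences rest on 12 and 10 HL60 DMSO reads over 3 libraries. In HL60 cells both genes passed the filter only through treated groups. After cytarabine 0 receptors were called between these lines (8.38% of all genes), with 4 at an unadjusted p under 0.05 and 2 by DESeq2. Of all 19053 genes, 4115 had an unadjusted p under 0.05 in edgeR, and DESeq2 called 812 as higher and 1285 as lower. The FLT3 response, called in HL60 cells and not in MOLM13 cells, differed by -1.43 after cytarabine (adjusted p = 0.0995), -0.89 after daunorubicin (adjusted p = 0.262) and -1.17 after the combination (adjusted p = 0.106). With a term for replicate number within each line, edgeR called it after all 3 treatments. The differences were then -1.43 (adjusted p = 0.0046), -0.91 (adjusted p = 0.0427) and -1.18 (adjusted p = 0.00729). Without the 2 OCIAML3 libraries, which enter through the shared estimate of spread, the adjusted p of FLT3 were 0.0116, 0.0804 and 0.0157, and CSF1R (-2.42, adjusted p = 0.0148) and FGFR1 (-0.95, adjusted p = 0.045) were also called after cytarabine.

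OCIAML3 cells differed from HL60 cells in the cytarabine response of FLT3 (-1.82), CSF1R (-3.03) and FGFR3 (-3.61; 23.1% of all genes), in the daunorubicin response of FLT3 (-1.94; 5.21% of all genes), and in the combination response of FLT3 (-1.90), CSF1R (-2.43) and FGFR3 (-3.77; 26.7% of all genes). Each of these responses was lower in OCIAML3 cells. The CSF1R differences rest on the same 10 HL60 DMSO reads. The FLT3 difference after the combination was -3.20 without the 2 libraries (adjusted p = 7.45e-06), and without replicate 3 of all drug groups that after daunorubicin was -2.61 (adjusted p = 3.14e-05). Compared with MOLM13 cells, OCIAML3 cells differed in the cytarabine response of FGFR3 (-3.70; 4.56% of all genes), in the daunorubicin response of FGFR1 (1.82) and CSF3R (-0.67; 10.8% of all genes), and in the combination response of FGFR3 (-2.06), FGFR1 (1.64) and CSF3R (-0.76; 12.2% of all genes). Without the 2 libraries the FGFR3 difference after the combination was -1.76 and was not called (adjusted p = 0.107). The same fit called FLT3 after the combination (-2.03, adjusted p = 0.00661, beside -0.73 and adjusted p = 0.423 with all libraries) and CSF3R after cytarabine (-0.59, adjusted p = 0.0476). Without replicate 3 of all drug groups FLT3 was also called after daunorubicin (-1.72, adjusted p = 0.00218). All these reduced fits kept OCIAML3 DMSO replicate 3, the highest DMSO library for FLT3.

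Of the wider pathway, ligand genes of these receptors and their relatives had the highest median change of 6 lists in HL60 and MOLM13 cells. Listed genes near silence with DMSO entered the tests only through treated libraries and so had to be higher there to be counted. In HL60 cells 12 of 29 listed ligands were tested, of which 5 rose after cytarabine (13.7% of all genes rose; median log2 fold change 1.09, beside 0.01 over all genes) and 7 rose and 1 fell after the combination (17% of all genes rose; 1.33, beside 0.04). After daunorubicin 0 rose and 1 fell (6.76% of all genes rose; 0.35, beside 0.01). They included PDGFA, a platelet-derived growth factor (1.77 with cytarabine and 2.01 with the combination), and TGFA, a ligand of the EGF receptor (1.19 and 1.74). In MOLM13 cells 5, 6 and 4 of 14 tested ligands rose after cytarabine, daunorubicin and the combination, and 0 fell, where 7.11%, 11.3% and 11.8% of all genes rose. TGFA rose by 2.39, 2.81 and 2.92 there. In OCIAML3 cells no ligand was called with all libraries, whereas TGFA (1.56 and 2.07) and HBEGF (1.44 and 1.75) rose after daunorubicin and the combination without the 2 libraries.

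Of 26 related receptors tested in HL60 cells, 6 rose and 1 fell after cytarabine, 1 rose after daunorubicin and 8 rose after the combination, beside 13.7%, 6.76% and 17% of all genes that rose. TYRO3, a kinase of the AXL family, rose in all 3 (2.00, 1.90 and 1.86), and IL10RA, a chain of the IL-10 receptor, after cytarabine (2.14) and the combination (3.17). In MOLM13 cells 2, 3 and 3 of 26 rose (7.11%, 11.3% and 11.8% of all genes) and 0, 1 and 0 fell. AXL, a receptor tyrosine kinase for GAS6, rose in all 3 (2.56, 3.47 and 3.14), and TYRO3 fell after daunorubicin (-1.52, adjusted p = 0.0325). AXL also rose in OCIAML3 cells without the 2 libraries, by 1.83 and 1.82 after daunorubicin and the combination.

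Genes that carry the signal inside the cell moved little as a group, with medians of -0.06 to 0.10 over adaptors, kinases and RAS relays in HL60 and MOLM13 cells. In HL60 cells 4, 2 and 4 of 41 rose after cytarabine, daunorubicin and the combination, fewer in proportion than the 13.7%, 6.76% and 17% of all genes, among them the SRC family kinase FGR (4.37, 2.17 and 5.02). In MOLM13 cells 2, 4 and 5 of 42 rose (7.11%, 11.3% and 11.8% of all genes), including JAK3, a kinase of cytokine receptors (2.13, 2.40 and 1.94). Of the negative regulators 9, 4 and 12 of 32 rose in HL60 cells, beside the same shares of all genes as above, such as SOCS1, an inhibitor of JAK kinases (2.70, 1.73 and 3.14). In MOLM13 cells 4, 3 and 3 of 33 rose (7.11%, 11.3% and 11.8% of all genes) and 1, 2 and 1 fell (1.03%, 5.71% and 5.61% of all genes). Those that rose in that line included SOCS3 (1.08, 1.08 and 1.09 after the 3 treatments) and SOCS1 (1.22 after cytarabine and 1.16 after daunorubicin). SPRY1, an inhibitor of RAS signalling below receptor kinases, fell there (-1.17, -1.09 and -1.03).

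Of the target genes of STAT5 and MAPK signals, 11, 3 and 13 of 27 were called as higher in HL60 cells (13.7%, 6.76% and 17% of all genes) and 1, 0 and 1 as lower. EGR1, an immediate early gene, rose by 3.68 after cytarabine (adjusted p = 0.00483) and 4.15 after the combination (adjusted p = 0.00187). In MOLM13 cells 3, 4 and 4 of 27 rose (7.11%, 11.3% and 11.8% of all genes) and 1, 3 and 1 fell. FOS (1.85 and 1.93) and BCL6, a repressor of transcription (1.33 and 1.27), rose there after daunorubicin and the combination. After cytarabine OSM (1.26) and ID1 (1.14) rose. MYC fell there after cytarabine (-1.49) and daunorubicin (-1.19), and ETV4, a MAPK-responsive ETS factor, after daunorubicin (-2.15) and the combination (-2.02). Of the transcription factors of myeloid receptor genes, 4, 1 and 4 of 22 rose in HL60 cells, beside 13.7%, 6.76% and 17% of all genes. In that line 0, 0 and 2 fell beside 3.12%, 0.538% and 6.29% of all genes. CEBPB was up (1.18 after cytarabine and 1.50 after the combination), and MYB (-1.22) and CEBPA (-1.01) were down after the combination. In MOLM13 cells 1, 0 and 0 of 22 rose (7.11%, 11.3% and 11.8% of all genes) and 0, 2 and 2 fell (1.03%, 5.71% and 5.61% of all genes). Those that fell were ETS1 (-1.19 and -1.16) and GATA2 (-1.02 and -1.15). With all OCIAML3 libraries none of the 6 lists had a called gene by edgeR. Without the 2 libraries, 6 and 7 of 26 target genes rose there after daunorubicin and the combination (3.61% and 5.9% of all genes), among them BCL6 (2.14 after the combination). In the same fits 0 and 1 fell (0.539% and 1.96% of all genes). The gene that fell after the combination was SOCS2 (-2.29, adjusted p = 0.0362).

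Over the 36 libraries, after removing the mean of each line from log2 CPM, FGFR3 and CSF1R had the closest courses among the receptors (Pearson's r 0.80), followed by KIT and CSF3R (0.79). FLT3 shared its course with no other receptor, with r between -0.08 and 0.32. Among 12010 genes, the most like FLT3 was TBL1X (0.92), and the most like KIT was SMPD3 (0.90). KIT had next to no reads in OCIAML3 cells, so that line added almost no variation of KIT to its correlations. CSF1R was most like CDKN1A (0.96), FGFR3 most like TIRAP (0.95), FGFR1 most like CSRP1 (0.88), CSF3R most like TPP1 (0.95) and CSF2RB most like DOK3 (0.88). These values describe how the libraries vary together, which share lines, treatments and depth, and they were not tested.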

How the data were processed

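Total RNA of 36 cell line samples was read as unstranded paired-end libraries. The authors checked reads with FastQC 0.11.9, quantified transcripts of Ensembl (GRCh38) with Salmon 1.8.0 and tested genes with edgeR 3.38.1. The authors deposited estimated counts and TPM values per transcript, with transcript lengths, not normalized between libraries. How messenger RNA was enriched is not given in the sources used here. Of 252199 transcripts, 235378 had an identifier in GENCODE release 44 and formed 59041 genes, and 16821, with 3.99% to 4.52% of the counts, were left out.

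Counts were summed per gene, rounded and, for levels, scaled to CPM by TMM. TPM were summed per gene. Replicate libraries all differed by more than sampling noise. Genes were filtered with filterByExpr (minimum count 10, total 15) and fitted in edgeR 4.0.16 (R 4.3.3), each line alone for treatments, the 9 DMSO libraries for levels and all 36 for interactions. The quasi-likelihood test with Benjamini-Hochberg adjustment was used, and a standard error is the log2 fold change over the square root of F. The procedure was tested on simulated counts. Alternatives were DESeq2 1.42.0, RLE scaling, other filters, a length offset, protein-coding transcripts only, other sets of libraries and a replicate block. The genes, their lists and the tests were chosen with earlier results of these data known. All 7 receptors were described in each comparison, with ligands and partners of each receptor and, of each list, up to 4 called genes with the largest change. LETM2 was added for its overlap. Some genes that this rule would name are not reported here. Promoters and motif matches came from RefSeq (GRCh38.p14), which held 5 of the 7 genes. Plots were made in Python 3.11.15 with matplotlib 3.10.9.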

Additional observations from a re-analysis of the deposited data

Results flagged for a closer look

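For 19 responses of receptors the difference between 2 lines passed the interaction test of edgeR over all 36 libraries (adjusted p under 0.05). In the same tests 4.56% to 27.4% of all 19053 genes passed, so such differences were not particular to receptors. Values are differences of log2 fold changes, the first line minus the second. Those of KIT and CSF1R that involve HL60 cells rest on 12 and 10 HL60 DMSO reads over 3 libraries.

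Between MOLM13 and HL60 cells the daunorubicin response differed for KIT (2.43, adjusted p = 0.0104), FGFR1 (-1.96, adjusted p = 0.000186) and CSF3R (0.68, adjusted p = 0.0184). The combination response differed for CSF1R (-2.45, adjusted p = 0.0317), FGFR1 (-2.07, adjusted p = 2.81e-05) and CSF3R (0.74, adjusted p = 0.00745). FGFR1 was higher than DMSO in all 9 treated HL60 libraries and lower in all 6 MOLM13 libraries with daunorubicin or the combination.

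Between OCIAML3 and HL60 cells the cytarabine response differed for FLT3 (-1.82, adjusted p = 0.0191), CSF1R (-3.03, adjusted p = 0.0101) and FGFR3 (-3.61, adjusted p = 0.000315). The daunorubicin response differed for FLT3 (-1.94, adjusted p = 0.0432). The combination response differed for FLT3 (-1.90, adjusted p = 0.0121), CSF1R (-2.43, adjusted p = 0.0343) and FGFR3 (-3.77, adjusted p = 0.000137).

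Between OCIAML3 and MOLM13 cells FGFR3 differed after cytarabine (-3.70, adjusted p = 0.00336) and the combination (-2.06, adjusted p = 0.0427). FGFR1 differed after daunorubicin (1.82, adjusted p = 0.00135) and the combination (1.64, adjusted p = 0.00312), and CSF3R after both (-0.67, adjusted p = 0.0348, and -0.76, adjusted p = 0.0165). Each OCIAML3 value after cytarabine or the combination includes a library that stands apart. Those after daunorubicin include replicate 3, which also differed from its group. Without cytarabine 3 and combination 3, the FGFR3 difference between OCIAML3 and MOLM13 cells after the combination was -1.76 and was not called (adjusted p = 0.107).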

How the results depend on the processing

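Of 23 called treatment changes, 20 kept their call with each single library left out and 17 under the other alternatives, as did 10 and 9 of 10 called DMSO differences. Of 19 called interactions 17 kept theirs under DESeq2, RLE scaling, no filter, the replicate block and the 2 fits without OCIAML3 libraries. Interactions were not recomputed with single libraries left out, a stricter filter, the length offset or protein-coding transcripts only. The FGFR1 interactions were thus not checked with the length offset, under which the FGFR1 changes of MOLM13 cells lost their calls. Genes near silence limited the tests, with 10 to 12 reads over the HL60 DMSO libraries for CSF1R and KIT. With no fold threshold, 5 receptors passed in HL60 cells after daunorubicin, where 1994 of all 15608 genes passed as higher and 1426 as lower. In MOLM13 cells after cytarabine 5 passed, where 2774 of all 16184 genes passed as higher and 2882 as lower. With the fold threshold, the length offset gave 1 receptor in the latter comparison, beside 2 in the main fit. For OCIAML3 daunorubicin, DESeq2 gave 2 receptors, the 6 libraries of the 2 groups 2, all 36 libraries in 1 fit 1, the fit without cytarabine 3 and combination 3 gave 2 and drug replicates 1 and 2 alone 3. For the OCIAML3 combination the last 2 settings gave 3 and 3. With single libraries left out these counts ran from 0 to 2 and from 0 to 3, the highest without combination replicate 3. The matching numbers of all genes are given above for DESeq2 and both reduced fits. For the other settings they are not reported here. Interaction counts moved by over 1.5 times after cytarabine for MOLM13 minus HL60 (DESeq2 2, without the 2 libraries 3, drug replicates 1 and 2 alone 3) and OCIAML3 minus MOLM13 (2 in both of the latter), while those after daunorubicin or the combination moved by at most 1 receptor in these fits. Without the 2 libraries, 628 of all 19569 genes were called as higher and 1252 as lower after cytarabine for MOLM13 minus HL60. For OCIAML3 minus MOLM13 these numbers were 1044 and 776. With drug replicates 1 and 2 alone they were 631 and 1271, and 1045 and 803, of 19550 genes. In OCIAML3 minus MOLM13, CSF3R after the combination was -0.61 and lost its call with drug replicates 1 and 2 alone (adjusted p = 0.0502). KIT in HL60 cells with protein-coding transcripts only was 4.78 after cytarabine (adjusted p = 0.18) and 6.04 after the combination (adjusted p = 0.0599). CSF1R in HL60 cells after daunorubicin lost its call with no low-count filter (1.61, adjusted p = 0.0574) and in the fit of all 36 libraries (1.61, adjusted p = 0.251). The causes were not tested.

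Replicate numbers were not taken to pair the samples in the main fits. Same-numbered deviations from the group means correlated at 0.0896 to 0.353 in HL60 (median 0.159), -0.0203 to 0.335 in MOLM13 (median 0.0497) and -0.258 to 0.457 in OCIAML3 cells (median 0.05). All 18 HL60 values were positive, so a weak part shared by same-numbered libraries is possible there, for which the replicate block allows. The replicate block gave 2 interactions after cytarabine for MOLM13 minus HL60 and 5 for OCIAML3 minus HL60, turned CSF1R (-0.05) and CSF3R (-0.01) in OCIAML3 minus HL60 after daunorubicin and CSF1R (-0.16) in OCIAML3 minus MOLM13 after the combination, and left the counts of called treatment changes as they were. It called FLT3 for MOLM13 minus HL60 after each treatment, as given above, and for OCIAML3 minus MOLM13 after daunorubicin (-1.14, adjusted p = 0.028). How many of all genes the replicate block called is not reported here.

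Signs turned only for values that were not called. With single libraries left out, CSF3R after cytarabine ran from -0.04 to 0.21 in HL60 and from -0.0021 to 0.20 in OCIAML3 cells, FGFR1 after cytarabine from -0.14 to 0.26 in MOLM13, FLT3 from -0.45 to 0.07 and CSF2RB from -0.07 to 0.07 in OCIAML3 cells after cytarabine, and CSF2RB in DMSO, OCIAML3 minus HL60, from -0.05 to 0.25. Without the 2 libraries, OCIAML3 after cytarabine gave -0.0017 for CSF3R and -0.07 for CSF2RB (-0.07 with drug replicates 1 and 2 alone). CSF3R after the combination, OCIAML3 minus HL60, was 0.04 with no filter and 0.13 in both fits without libraries. CSF1R after the combination, OCIAML3 minus MOLM13, was -0.05 with DESeq2, -0.05 with RLE scaling and -0.0043 with no filter.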
